A study of Homo sapiens with 2 samples.

Results

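The 10 transcription and splicing factors of the epithelial-mesenchymal transition (EMT) were followed by gene symbol in QGP1 cells, comparing a fraction with high activity of aldehyde dehydrogenase (ALDH) with control QGP1 cells. They were SNAI1, SNAI2, SNAI3, TWIST1, TWIST2, ZEB1, ZEB2, ESRP1, GRHL2 and OVOL2, 10 of 19775 genes with a probe set. All probe sets whose single gene symbol was one of these were taken, which gave 20 of 54613 compared probe sets. QGP1 is an established human cell line from a pancreatic neuroendocrine tumour. One group held QGP1 cells collected by fluorescence-activated sorting for high ALDH activity, a property used to enrich for stem-like tumour cells, and the other held control QGP1 cells with no stated treatment. The sources used here do not say whether the control cells were sorted. Each group was 1 Affymetrix expression array of a single cell line, so no difference has a replicate check, none was tested and no p-value is given.

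EMT is the programme by which epithelial cells loosen their junctions and take on mesenchymal traits. SNAI and ZEB proteins are zinc-finger repressors that bind E-box sequences with the core CACCTG, and TWIST proteins are basic helix-loop-helix factors that bind E-boxes as dimers with E proteins. ESRP1 directs epithelial splicing, GRHL2 activates epithelial junction genes, and OVOL2 represses mesenchymal genes, ZEB1 among them, so these factors act against the repressors.

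Among the repressors, SNAI2 alone stood more than 2-fold apart between the arrays, and the antagonists did not shift together. SNAI2, the repressor also called SLUG, was 8.92-fold higher in the ALDH high cells, a fold against a control level near the floor of the array (a log2 difference of 3.16, and of 1.70 with a pseudocount of 16). ZEB1 was 1.37-fold higher, SNAI1, TWIST1 and TWIST2 were level or nearly so, and SNAI3 was 1.35-fold lower. ESRP1 was 1.49-fold lower and GRHL2 1.20-fold lower, whereas OVOL2 was 1.34-fold higher. Of the 10 genes, 1 was over 2-fold higher and 0 were over 2-fold lower, where 0.465% of all genes were 2-fold or more higher and 1.23% lower. Their median difference was 0.0 (ALDH high minus control, log2 scale), with 4 above 0, 4 below 0 and 2 equal, beside a median of -0.005 over all genes. Here 1 probe set stood for each gene, the brightest by its mean over both arrays. Over all 20 probe sets of these genes, 1 was over 2-fold higher and 0 lower, where 0.403% and 0.842% of compared probe sets were. These shares come from 680 probe sets without a filter, whereas the series description counts 185 at this fold, and the filter behind that count is not stated in the sources used here.

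The arrays had the same median level of 5.68 on the log2 scale of robust multi-array averaging (RMA). The differences between probe sets of the same gene had a pooled SD of 0.23 over 10523 genes, and of 0.19 among probe sets at or above the median level. This spread is the only error these data offer, and it covers neither cultures nor sorts. The poly-A spikes, added to the RNA before labelling, were higher on the ALDH high array by 0.32 on average (SD 0.07, n = 24 probe sets), and the hybridisation controls by 0.05 (SD 0.04, n = 18 probe sets). Signs of RNA quality were alike: the 3' over 5' ratio was 1.83 (ALDH high) and 1.67 (control) for ACTB, and 1.14 and 1.15 for GAPDH. All 16 measured neuroendocrine markers were at or above the median level on either array. The granule proteins CHGA (11.50 against 11.70) and CHGB (12.60 against 12.71) were bright, whereas SYP stood at 6.48 on both arrays. The epithelial adhesion protein EPCAM was bright as well (13.39 against 13.51). These markers were picked after their values were seen.

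**Figure D1:**
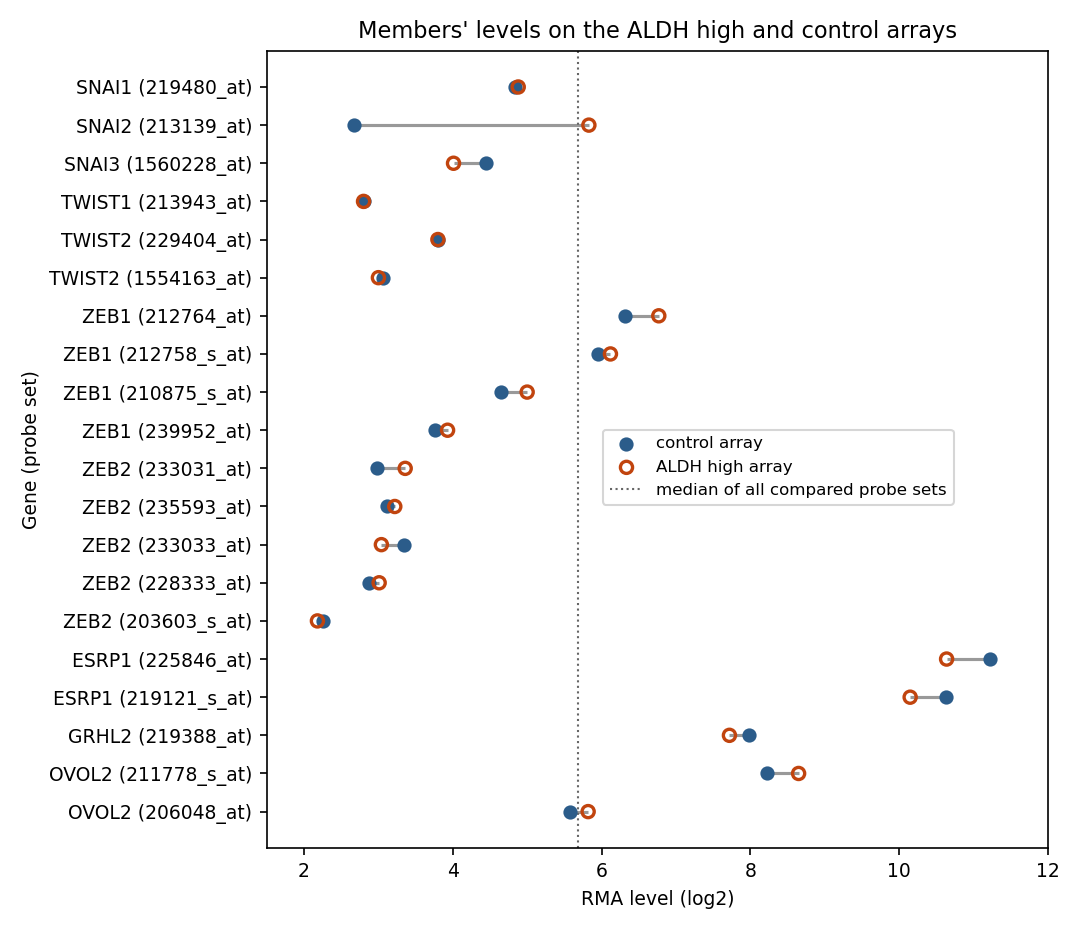
RMA levels (log2, horizontal axis) of all 20 probe sets of the 10 genes, with a filled point for the control array and an open point for the ALDH high array, and a dotted line at the median of all compared probe sets (5.68). SNAI2 runs from 2.67 to 5.83, while the points of every other probe set lie within 0.57 of each other.

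SNAI2 had a level of 5.83 on the ALDH high array and 2.67 on the control array, a difference of 3.16 from its only probe set. Its control level lay at percentile 5.17 of that array's probe sets and its ALDH high level at percentile 52.4. The transcript thus read near the floor of the array in control cells and near the middle in the sorted cells. In RNA from many cells, more SNAI2-expressing cells and more SNAI2 RNA per cell cannot be told apart. Of 2825 probe sets at or below this control level, SNAI2 included, SNAI2 was the 1 that reached its ALDH high level, and 2 were 2-fold or more higher. The second of those, a probe set without a gene symbol in the annotation, stood at 3.40 against 2.21. Both cuts were SNAI2's own levels, so these counts describe its position and are no support for its difference. SNAI2 ranked 4 among all genes by difference. The submitters name SNAI2 in the series description as overexpressed on these arrays, so its difference is a description and not independent evidence. The pseudocount, added on the linear scale, left the difference over 2-fold.

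The other SNAI genes, which encode repressors with the same zinc-finger type, did not share this pattern. SNAI1, the founding family member in EMT, had a level of 4.88 on the ALDH high array and 4.84 on the control array, at percentiles 36.0 and 35.1. Its difference of 0.04 lay within the spread between probe sets. SNAI3, a further SNAI zinc-finger protein, had a level of 4.01 against 4.45, a difference of -0.43 from 1 probe set at percentiles 22.4 and 28.7. Both are dim probe sets, and the deposited table carries no detection calls, so a dim level cannot be told from absence.

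Neither TWIST gene differed. TWIST1, a driver of mesoderm and of EMT, had the same level of 2.80 on both arrays, at percentile 6.83 of the ALDH high array. TWIST2, its close paralogue, had the same level of 3.80 on both arrays on its brighter probe set, and 3.0 against 3.06 on the other. All of these values lay at or below percentile 19.5, where a small amount of transcript would not be detectable. Exactly equal values were deposited for 2877 probe sets, 5.27% of those compared, so equality is not peculiar to the TWIST genes.

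ZEB1, a zinc-finger repressor of epithelial genes, was higher in the ALDH high cells on each of its 4 probe sets. The brightest gave a level of 6.77 on the ALDH high array against 6.31 on the control array, a difference of 0.45. The remaining probe sets gave 6.12 against 5.95, 5.0 against 4.65 and 3.93 against 3.76. Thus the direction was shared, and the size ranged from 0.17 to 0.45, a range that includes the mean shift of the poly-A spikes (0.32), whose part in the result was not tested. The difference of the brightest probe set was past the pooled SD of 0.19 between probe sets at or above the median level. That of the dimmest, 0.17, had a size shared to 6 decimals by 53 probe sets of the arrays. Of all genes, 11.6% differed at least as much as ZEB1 in size.

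ZEB2, its paralogue, was dim throughout and had no shared direction. Its 5 probe sets had levels between 2.18 and 3.36 on the ALDH high array and between 2.26 and 3.34 on the control array. Of these, 3 were higher and 2 lower, with differences from -0.29 to 0.38. The probe set that stands for the gene gave -0.29 (3.04 against 3.34), but the mean over all 5 was 0.05 and the median 0.09, so the direction depends on the probe set.

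Both ZEB transcripts are textbook targets of the miR-200 microRNAs, which ZEB proteins repress in turn. The mature sequences are shown because the family falls into seed groups and because a host transcript of part of the family had a probe set. They are from RefSeq (GRCh38.p14), 5′ to 3′, with the seed, bases 2 to 8, in capitals.
hsa-miR-200b-3p: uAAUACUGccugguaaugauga
hsa-miR-200c-3p: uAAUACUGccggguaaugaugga
hsa-miR-429: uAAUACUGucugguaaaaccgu
hsa-miR-141-3p: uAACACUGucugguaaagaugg
hsa-miR-200a-3p: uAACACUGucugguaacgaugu
The first 3 share the seed AAUACUG and the other 2 share AACACUG. The genes of miR-200c (chr12:6963742-6963764) and miR-141 (chr12:6964155-6964176) lie side by side on the plus strand of chromosome 12, and the rest of the family is on chromosome 1. The mature microRNAs themselves were not analysed here. MIR200CHG, the host transcript of the chromosome 12 pair, had a level of 6.82 on the ALDH high array and 7.28 on the control array. Its difference of -0.46 was opposite in sign to that of ZEB1 and came from 1 probe set of a type that can bind more than 1 transcript. MIR205HG, the host of miR-205, another repressor of ZEB transcripts, had 4.75 against 4.45. A probe set with the symbol MIR205, of a type that can bind more than 1 transcript, had 5.88 against 5.66. Both were of the same sign as ZEB1. These probe sets were chosen after their values were seen.

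ESRP1 had the largest negative difference of the 10 genes. This RNA-binding protein keeps the epithelial exons of FGFR2, CD44 and other transcripts in use. Its brighter probe set had a level of 10.64 on the ALDH high array and 11.22 on the control array, and the other had 10.15 against 10.63. The differences were -0.57 and -0.49, both past the pooled SD of 0.19 between probe sets at or above the median level. Even so, ESRP1 stayed among the bright transcripts of the sorted cells, at percentile 95.1 against 96.9 in control. Of all genes, 7.08% differed at least as much in size. The poly-A spikes were shifted the opposite way to ESRP1, and their part was not tested.

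GRHL2, which holds junction genes active and represses ZEB1, had a level of 7.72 against 7.98, a difference of -0.26 from its only probe set. That is past the pooled SD of 0.19 between probe sets at or above the median level, but 30.6% of genes differed at least as much. OVOL2 went the other way, with 8.65 against 8.23 on its brighter probe set and 5.82 against 5.57 on the other. Its differences of 0.42 and 0.24 were past the same pooled SD of 0.19. They were of the same sign as those of ZEB1, which OVOL2 is known to repress. The brighter OVOL2 probe set is of a type that can bind more than 1 transcript. The dimmer one had a difference whose size was shared to 6 decimals by 33 probe sets of the arrays. As with ZEB1, the poly-A spikes were shifted the same way as OVOL2, and they were shifted the opposite way to GRHL2. Their part in either difference was not tested.

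**Figure D2:**
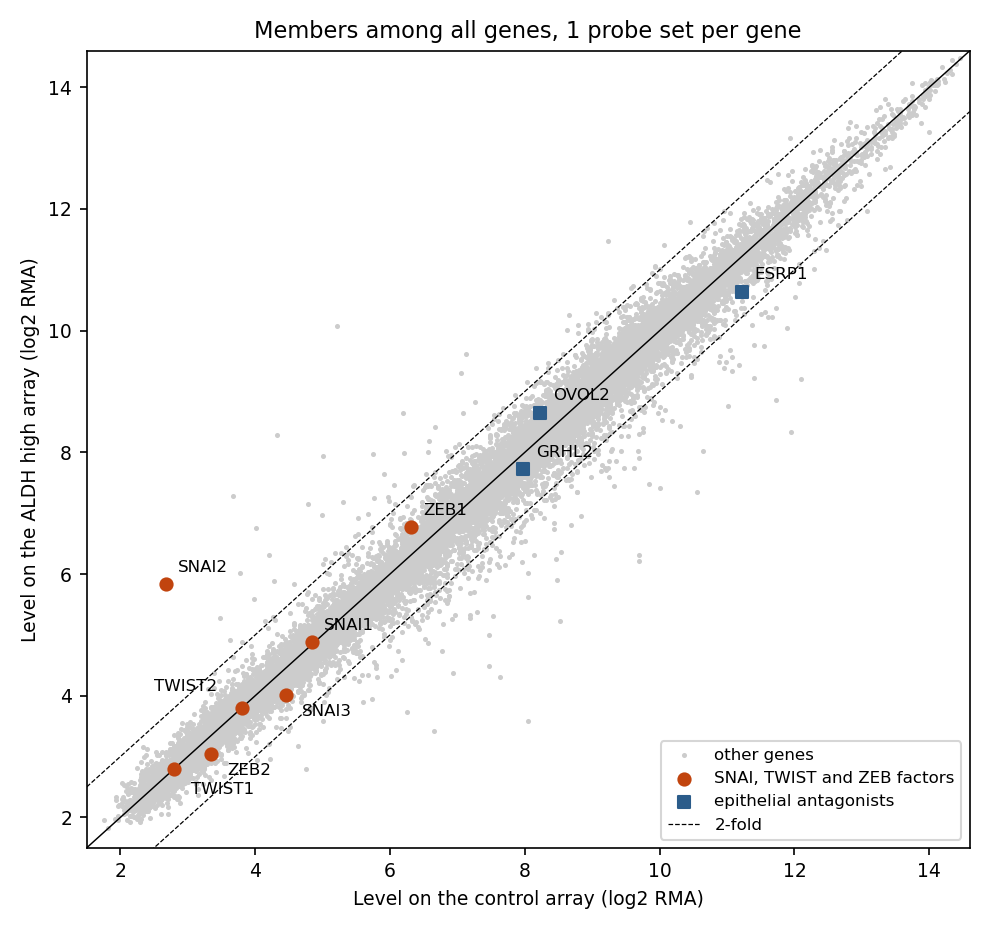
Level on the ALDH high array (vertical axis, log2 RMA) against the control array (horizontal axis, log2 RMA) for 19775 genes in grey, with the repressors as circles and the antagonists as squares, and dashed lines at 2-fold. SNAI2 (5.83 against 2.67) lies outside the lines, and the other 9 genes lie between them.

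On the plane of both levels, the 5 genes nearest to SNAI2 by Euclidean distance, measured over the 2 arrays, were IL18, GJA1, SCN7A, EMP1 and EFEMP1. The nearest was the cytokine IL18, at 5.28 against 3.48, and next came the gap junction connexin GJA1, at 6.01 against 3.78. EMP1, an epithelial membrane protein, had 5.59 against 3.98. Their distances ran from 0.98 to 1.47 log2 units, so none lay close to SNAI2, and with a level on each of 2 arrays this likeness says little.

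Epithelial genes that SNAI, ZEB or TWIST proteins are known to repress were mostly level between the arrays while SNAI2 was higher. Of 29 measured, 1 was higher by over 2-fold and 1 was lower, where 0.465% and 1.23% of all genes were. The median was -0.09, with 12 above 0 and 17 below (50.3% of all genes were below 0). CDH1, the E-cadherin gene and the classical target, had 12.42 against 12.65 on its brighter probe set and a second difference of -0.47. PRSS8, the membrane protease prostasin, was 2.23-fold lower (6.05 against 7.21), and CLDN1, a tight junction claudin, was 2.12-fold higher (6.35 against 5.27). With the pseudocount neither was over 2-fold (-0.99 and 0.84), and as the mean of its probe sets CLDN1 differed by 0.81.

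The E-box core was then looked up in RefSeq promoters, 250 bases before to 50 after a start, as CACCTG on either strand (CAGGTG when read on the other). It was present in 20.6% of 35116 such windows and, counting any window of a gene, in 24.1% of genes. Windows were matched for 17 of the target genes, CDH1 and PRSS8 not among them, and 12 of the 17 held the word. These 12 had a median difference of -0.17, with 8 below 0, and the 5 without it had 0.01, with 2 below 0. The list was made of known targets of E-box binding repressors, so the share with the word is no finding. A match is not evidence of a site, and the groups are small.

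The 250 bases before the start of 3 of these targets show how words of the same kind sat before a lower, a nearly level and a higher gene. They are given 5′ to 3′ on the plus strand of GRCh38.p14, with the words in capitals. CRB3, which encodes an apical polarity protein (chr19:6464021-6464270), held 5 of them, and PATJ, whose product belongs to the same Crumbs complex (chr1:61742230-61742479), and DSP, which encodes desmoplakin of the desmosome (chr6:7541421-7541670), held 2 each.
CRB3: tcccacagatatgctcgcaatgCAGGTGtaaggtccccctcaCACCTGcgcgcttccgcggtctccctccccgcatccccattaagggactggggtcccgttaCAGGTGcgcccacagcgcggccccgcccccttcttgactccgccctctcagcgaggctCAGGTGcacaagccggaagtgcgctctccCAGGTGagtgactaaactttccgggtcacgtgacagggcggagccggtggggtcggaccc
PATJ: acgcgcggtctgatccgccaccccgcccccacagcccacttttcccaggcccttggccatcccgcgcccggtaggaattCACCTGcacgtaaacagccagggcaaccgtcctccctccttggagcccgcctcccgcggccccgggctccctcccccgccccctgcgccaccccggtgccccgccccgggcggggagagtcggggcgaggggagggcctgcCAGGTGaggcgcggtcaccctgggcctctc
DSP: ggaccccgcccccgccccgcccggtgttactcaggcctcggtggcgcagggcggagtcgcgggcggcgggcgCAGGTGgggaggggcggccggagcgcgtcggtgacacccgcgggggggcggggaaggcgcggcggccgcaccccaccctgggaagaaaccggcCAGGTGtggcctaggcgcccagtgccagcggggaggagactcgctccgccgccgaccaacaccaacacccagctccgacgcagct
CRB3 had a level of 7.85 on the ALDH high array and 8.21 on the control array. PATJ had 8.93 against 9.02 on its brightest probe set, and its 6 probe sets ranged from -0.28 to 0.05. DSP had 12.01 against 11.46. CRB3 and DSP each rested on 1 probe set. These 3 genes were chosen for printing after their values were seen.

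Mesenchymal genes that EMT commonly raises did not shift as a list by their median. Of 28 measured, 2 were over 2-fold higher and 0 were lower by that much, where 0.465% and 1.23% of all genes were. The list was chosen with earlier results of these data known, so this count is a description and no evidence of enrichment. The median was -0.03, with 12 above 0 and 15 below, beside 45.6% and 50.3% of all genes. Only 16 of the 28 were at or above the median level on either array. For the dimmer ones a level cannot be told from absence, which limits what the median can show. The higher ones were the matrix proteins THBS1 (9.62 against 7.12, 5.66-fold) and TNC (8.41 against 6.67, 3.32-fold). The 7 probe sets of THBS1 ranged from 0.02 to 2.50, with a mean of 1.18 and a median of 1.55. TNC rested on 1 of its 3 probe sets, and the mean over them was 0.61. The intermediate filament VIM had 6.53 against 5.84 on its brighter probe set and -0.15 on a dim one, and N-cadherin, CDH2, differed by -0.08. Cadherin-11, CDH11, was lower on all 4 of its probe sets, by 0.39 to 1.39 on the log2 scale. VIM, CDH2 and CDH11 were chosen after their values were seen.

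Transcripts with exons under ESRP control had a median of 0.07 over 11 genes, and 1 was over 2-fold higher, where 0.465% of all genes were. That was the hyaluronan receptor CD44, at 7.25 against 5.76 on its brightest probe set, and 12 of 13 CD44 probe sets were higher, with a median difference of 0.39. EPB41L5, a junction scaffold, had 8.43 against 8.78. Levels of whole probe sets do not show which exons were used.

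Paralogues of the antagonists and other epithelial factors had a median of -0.13 over 12 genes. Of them 9 were below 0 (50.3% of all genes were). None was over 2-fold apart, where 0.465% of all genes were higher by that much and 1.23% lower. KLF5, a Krüppel-like factor of epithelia, had 7.89 against 8.84, and its other probe set differed by -0.91. ELF3, an epithelial ETS factor, had 8.91 against 9.81, and its 3 probe sets ranged from -0.91 to -0.46. GRHL1, the paralogue of GRHL2, had 8.69 against 9.43 and was lower on both probe sets, whereas OVOL1, the paralogue of OVOL2, had 7.65 against 7.75. FOXA1, a forkhead factor of endoderm, was higher on both probe sets (8.61 against 7.96 and 6.51 against 5.75). GRHL1, OVOL1 and FOXA1 were named after their values were seen. Of 12 other factors known to induce EMT, none was over 2-fold apart either, beside the same shares of all genes. Their median was -0.09, and only 6 of the 12 were at or above the median level on either array. SOX9 had 9.08 against 9.71, lower on both probe sets. HMGA2 had 11.61 against 10.82 on its brightest probe set, but 5 of its 9 were higher and 4 lower, and without probe sets that can bind several transcripts its value was -0.28.

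Partners of TWIST and the ID genes, taken as 1 list of 9, had a median of 0.26. Of them 7 were above 0 (45.6% of all genes were). None was over 2-fold apart, where 0.465% of all genes were higher by that much and 1.23% lower. The partners themselves had no shared direction: TCF12 differed by 0.26, HAND2 by 0.24, TCF3 by 0.03, TCF4 by -0.1 and HAND1 by -0.21. All 4 ID genes, whose products bind E proteins and so keep them from TWIST, were higher in the ALDH high cells. ID3 had 11.67 against 11.05 and ID1 12.46 against 11.96. ID2 had 13.68 against 13.27, and ID4 had 11.46 against 10.99 with each of its 5 probe sets higher. The ID genes thus stood 1.33 to 1.54-fold higher, while the TWIST genes read level but too dim to be told from absence. ID2, ID4 and the partners were named after their values were seen. The shift of the poly-A spikes has the same sign as the ID genes and was not tested.

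Regulators of the repressors were close to level as lists. The 18 corepressors of SNAI and ZEB proteins had a median of 0.16. None was over 2-fold apart, where 0.465% of all genes were higher by that much and 1.23% lower. The largest differences were those of the histone methyltransferases EHMT2 (7.29 against 6.68, but a median of 0.09 over 3 probe sets) and EZH2 (10.40 against 10.08). The 16 genes for stability and localisation of SNAI and TWIST proteins had a median of -0.01. FBXW7, a ubiquitin ligase subunit, had 11.30 against 10.91 with all 4 probe sets higher, and the kinase PRKD1 had 7.88 against 8.17. The 20 upstream signalling genes had a median of 0.13. The ligand TGFB3 had 9.15 against 8.31 and the Wnt effector LEF1 8.25 against 7.49, yet each rested on its brightest probe set, and their medians over probe sets were 0.44 and 0.13.

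**Figure D3:**
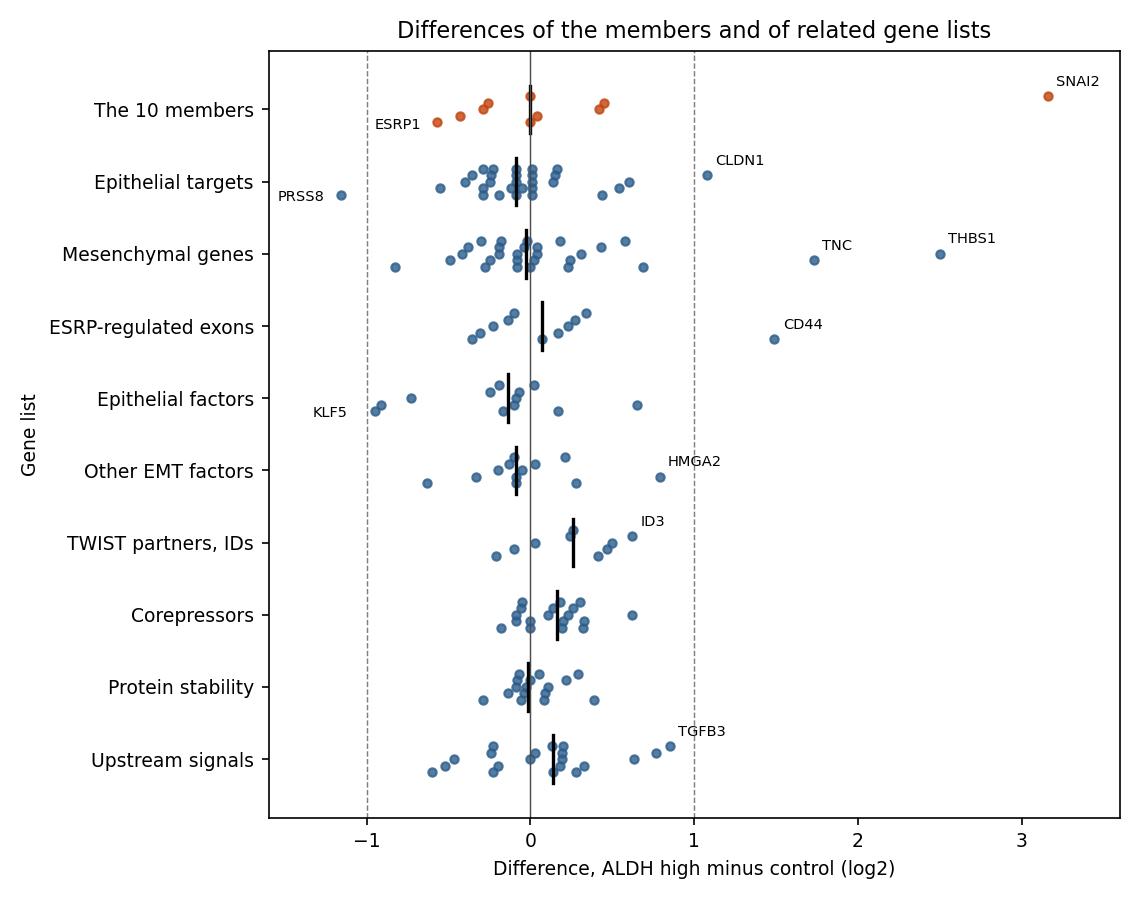
Difference, ALDH high minus control (log2, horizontal axis), for the 10 genes and for each gene of 9 related lists (rows), with black bars at the medians and dashed lines at 2-fold. SNAI2 lies at 3.16 in the top row, and the list medians lie between -0.13 and 0.26.

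SNAI2 and several mesenchymal genes are also made by stromal cells, so their markers are given beside these results. Of 13 fibroblast and stellate cell markers none was over 2-fold apart, where 0.465% of all genes were higher by that much and 1.23% lower. Their median was -0.11, and their summed linear level was 538 on the ALDH high and 598 on the control array. FAP had 3.91 against 4.34 and ACTA2 4.98 against 5.40, with a median of -0.09 over 3 ACTA2 probe sets. The 10 endothelial markers summed to 351 and 341, with ESAM at 5.58 against 5.20 and ROBO4 at 5.64 against 5.27, although the other ROBO4 probe set gave 3.98 against 4.24. The 8 leukocyte markers summed to 258 and 320. Of them LYZ (4.34 against 5.67) and CD14 (4.30 against 5.32) were over 2-fold lower at low levels, where 1.23% of all genes were lower. With the pseudocount both were under 2-fold (-0.89 and -0.65). The 16 neuroendocrine markers had a median of -0.14, with VGF at 10.33 against 11.12 and DDC at 11.93 against 11.25. The part of such cells in the SNAI2 difference was not tested. Most of these markers were dim, with 4 of the fibroblast, 2 of the endothelial and 2 of the leukocyte markers at or above the median level on either array, and RMA levels have no true 0.

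The submitters' description names 3 further genes beside SNAI2, likewise from these arrays. They were CAV1, the caveolar coat protein (10.07 against 5.21), NT5E, the ectonucleotidase CD73 (7.29 against 3.67), and CD109, a surface protein that binds TGF-beta (6.76 against 4.01). Each stood higher in the ALDH high cells, as SNAI2 did, by the choice of the list. NT5E rested on 1 of its 4 probe sets, since the others differed by 0.24 to 0.33 and the mean and median over all 4 were 1.13 and 0.32, the latter under 2-fold. CD109 was 1.36 as the mean and 1.14 as the median of its 3 probe sets.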

How the data were processed

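Total RNA of ALDH high and control QGP1 cells, 1 sample each, was labelled with biotin after 3' in vitro transcription, per the labels' protocols. Per the submitters' processing notes, the authors used RMA, and the deposited log2 levels are 1 per probe set. RMA subtracts background, quantile-normalises arrays to each other and fits probes by median polish. Its version, and which arrays entered it, is not stated in the sources used here. Quantile normalisation would hide a shift shared by all genes. Of 54675 probe sets, 62 array controls were left out of the comparison.

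Gene names came from GEO's platform annotation: 41097 probe sets had 1 symbol, 1801 several and 11777 none listed, and 41043 were matched to RefSeq (GRCh38.p14) by Entrez ID. No build is named for the array, so gene coordinates are not given. A gene's probe set was the brightest by its mean over both arrays. The comparison was the log2 difference, ALDH high minus control, with a threshold of 2-fold. Probe sets with IDs ending in _s_at, _x_at or _a_at can bind more than 1 transcript (5 of the 20). A percentile is the share of compared probe sets at or below a level. The number of arrays limits the precision, and no test was possible with 1 array per group.

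The 10 genes and the related lists were chosen with earlier results of these data known. Named were the 10 genes, in each other list the genes over 2-fold apart (up to 4) and no fewer than the 2 that differed most, and the 5 genes nearest to SNAI2. Listed genes without a probe set of a single symbol were not analysed here. Alternatives were the mean or median of a gene's probe sets, leaving out probe sets that can bind several transcripts, a pseudocount of 16, centring the arrays, a minimum level, thresholds of 1.5-fold and 3-fold, and probe sets with several symbols. The code for the choice of probe set and threshold was run on simulated data. There all probe sets of a changed gene shifted alike and by well over 2-fold. The run thus cannot check smaller differences, or genes whose probe sets disagree. Python 3.11.15, pandas 2.3.3 and numpy 2.4.6 were used.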

Additional observations from a re-analysis of the deposited data

How the results depend on the processing

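Of 530 values recomputed for 91 results, 467 stayed within the spread between probe sets (0.23) or within 1.5 times a count, 63 moved and 0 of the differences over 2-fold changed sign. Part of the 467 had to stay, since the mean and the median of 1 probe set return its own value. This held for SNAI2, whose only probe set is also not of the type that can bind several transcripts. Centring left it at 3.16, as the array medians were alike. SNAI2 thus stayed over 2-fold higher under each alternative, but only the pseudocount of 16 moved its value, to 1.70. ZEB2 was 0.05 as a mean and 0.09 as a median over its probe sets. With a minimum level the median of the 10 genes was 0.42, over 5 genes, of which SNAI2 passed through its ALDH high level alone. Among epithelial targets the count over 2-fold higher was 0 with the mean, the median or the pseudocount, and the count lower was 0 with the pseudocount. Among mesenchymal genes 1 was higher with the mean or median, and 1, CDH11, was lower with the median (-1.06). CD44 was 0.65 as a mean and 0.39 as a median, which left 0 transcripts with ESRP-regulated exons over 2-fold higher. The 4 genes of the series description had medians of 2.26 (mean), 2.15 (median) and 2.27 (pseudocount). Over 2-fold lower leukocyte markers numbered 1 with the mean, the median or without probe sets that bind several transcripts, and 0 with the pseudocount or the minimum level. Where the mean or median over probe sets gave another value, dimmer probe sets entered it; the cause of the other moves was not tested. No paired analysis was possible because each group had 1 array, and no replicate could be left out. A dim level cannot be told from absence, which limits what SNAI1, SNAI3, TWIST1, TWIST2 and ZEB2 can show.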

Other observations

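Some probe sets of these genes carried differences that recurred elsewhere on the arrays. For 7 of the 20 probe sets the size of the difference was shared, to 6 decimals, by at least 20 probe sets. These were the only probe set of SNAI1 (42 probe sets), that of TWIST1 and the brighter of TWIST2 (2877, all equal on both arrays), the dimmest of ZEB1 (53), the dimmest of ZEB2 (147) and a further one of ZEB2 (36), and the dimmer of OVOL2 (33). The differences of SNAI2, of both ESRP1 probe sets, of the brightest ZEB1 and of the brighter OVOL2 probe set occurred once. So did those of the dim ZEB2 probe sets at 3.04 against 3.34 and at 3.01 against 2.88.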
